A study of Mus musculus with 8 samples.

Results

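Mast cell transcripts were followed in the diaphragm, the muscle that drives breathing, through 7 genes: the granule proteases Cpa3, Cma1, Mcpt4 and Tpsb2, the surface receptors Kit and Fcer1a, and the histamine-forming enzyme Hdc. They were taken as every probe set whose platform annotation names a single gene symbol among these 7. That gave 10 probe sets, with each of the 7 genes present, out of 22690 probe sets and 12393 named genes on the array. The tested muscle came from dy/dy mice, which carry a laminin-deficient muscular dystrophy. It was set against muscle of control mice labelled normal, with all mice aged 8 weeks. There were 4 dystrophic and 4 normal arrays, and every array held RNA of muscle pooled from 3 mice, which makes 12 mice per group. The labels give neither the strain background nor the genotype of the controls, and the spread over individual mice cannot be seen in pools.

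Mast cells are long-lived tissue cells that store proteases, heparin and histamine in granules and release them when IgE bound to their surface receptor is cross-linked. They depend on Kit, the receptor tyrosine kinase for stem cell factor, and in mice the connective tissue type, which lies around vessels, nerves and serous surfaces, is known for Cpa3, Cma1, Mcpt4 and Tpsb2, while the mucosal type is known for Mcpt1 and Mcpt2. Mast cells have been counted on sections of dystrophic muscle, mainly in the dystrophin-deficient mdx mouse. In bulk muscle, fewer mast cells and less mast cell RNA per cell cannot be told apart.

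The transcription factors Gata2 and Mitf are both needed for mast cell genes, and Gata2 binds GATA words in promoters. The bases just before the start of 3 protease genes with well-measured probe sets are shown so that the letters can be set beside the levels of these factors given further on. The sequences are from RefSeq, build GRCm38.p6, 250 bases before the start, 5′ to 3′ on the strand of the gene. Capitals mark a GATA word on either strand, which is AGATAA or the same with a final G, AGATAG, or either of these with a first T in place of the first letter, that is TGATAA or, with a final G, TGATAG. No other motif is marked in these windows.
Cpa3 (chr3:20242182-20242431, minus strand): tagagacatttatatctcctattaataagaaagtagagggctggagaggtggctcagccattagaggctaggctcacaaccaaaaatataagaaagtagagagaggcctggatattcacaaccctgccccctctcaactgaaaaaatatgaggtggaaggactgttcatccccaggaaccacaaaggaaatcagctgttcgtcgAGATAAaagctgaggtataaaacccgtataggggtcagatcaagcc
Cma1 (chr14:55944676-55944925, minus strand): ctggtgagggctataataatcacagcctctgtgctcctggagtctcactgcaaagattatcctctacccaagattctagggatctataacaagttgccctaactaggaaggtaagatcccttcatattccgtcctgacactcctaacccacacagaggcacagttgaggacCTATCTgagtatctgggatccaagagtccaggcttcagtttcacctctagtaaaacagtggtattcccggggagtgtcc
Mcpt4 (chr14:56062311-56062560, minus strand): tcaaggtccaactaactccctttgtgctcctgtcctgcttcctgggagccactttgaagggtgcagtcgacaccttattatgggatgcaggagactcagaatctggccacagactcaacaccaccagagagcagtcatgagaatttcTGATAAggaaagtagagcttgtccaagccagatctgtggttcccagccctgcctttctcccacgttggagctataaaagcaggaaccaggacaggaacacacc
The word begins 46 bases before the start of Cpa3, 79 before that of Cma1, where it lies on the other strand, and 103 before that of Mcpt4. Of 6 member genes with a promoter in that table, 5 held at least 1 such word in 250 bases, with Kit as the exception. The same words were found in 26.5% of all 32851 promoter windows of this length. The E-box word CACGTG, which Mitf binds, and its variant CATGTG were searched on both strands and lay in the window of 1 member gene, Fcer1a, and in 17.6% of all windows. A match describes letters and is not a binding site.

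Whole-array facts that touch these genes are few. Pearson correlations between arrays over probe sets lay between 0.939 and 0.977. Lama2, the laminin chain affected in dy/dy mice, fell to 270.0 ± 46.1 in dystrophic pools, against 846 ± 101 in normal pools (SD, n = 4), with a limma adjusted p of 8.91e-04. Signals are MAS5 intensities, rescaled so that every array had the same trimmed mean. The poly-A spike-in controls place the arrays in 3 levels, replicate 1 of both groups in one, replicate 3 of both in another, and replicates 2 and 4 of both in the third. Skeletal muscle markers were present, with 9 of 10 probe sets of 7 genes bright enough to be tested. The summed signal of 7 liver markers was 79754 in dystrophic replicate 3 and between 1966 and 8007 in the other dystrophic pools, against 1511 to 5132 in normal pools. The part of these transcripts in the mast cell values was not tested, and without that pool limma also called 0 member probe sets.

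The granule proteases were detected in both groups, and no member of the set passed the test between dystrophic and normal diaphragm. Of the 10 probe sets, 4 passed the filter that leaves out the dimmest 40% of the array (1 each for Cpa3, Cma1, Mcpt4 and Tpsb2), and limma called 0 of these 4 at an adjusted p under 0.05. At an unadjusted p under 0.05 the count was also 0 of 4, against 9.72% of all probe sets tested. Over the array 67 of 13575 tested probe sets were called, a share of 0.494%, with 62 higher (0.457%) and 5 lower (0.0368%) in dystrophic muscle. The 4 tested members had a median log2 difference, dystrophic minus normal, of 0.11, against -0.01 over all probe sets tested. In 0 of the 4 tested member probe sets did the groups fail to overlap, against a share of 6.4% among all those tested. The groups also overlapped in the 6 below the filter. Counts this small do not set the members apart from the array. A second Tpsb2 probe set, both Kit, the Fcer1a and both Hdc probe sets fell below the filter and are described by their values.

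**Figure D1:**
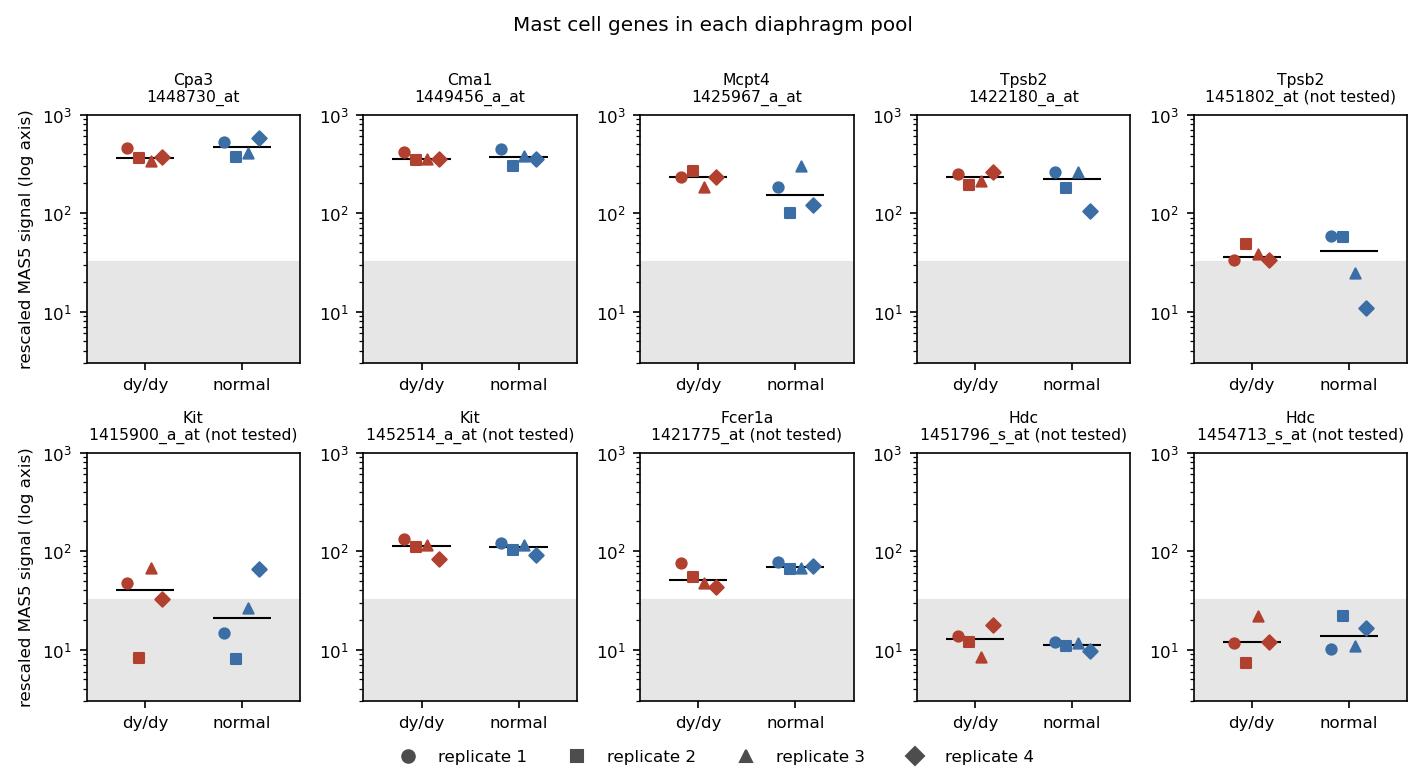
Rescaled MAS5 signal (log axis) of the 10 probe sets in the 4 dy/dy and 4 normal pools, with the pool replicate as marker shape, a bar at each group's median, and grey up to 32.2, the highest signal of the TrpnX negative controls. The groups overlap in every panel, and both Hdc probe sets lie within the grey band in all 8 pools.

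Cpa3 encodes carboxypeptidase A3, a zinc exopeptidase that trims hydrophobic residues from the ends of peptides. Its probe set 1448730_at had signals of 453, 362, 337 and 367 in dystrophic pools 1 to 4, against 527, 371, 402 and 579.8 in normal pools 1 to 4. Dystrophic pools 2, 3 and 4 lay below the lowest normal pool, and dystrophic pool 1 lay inside the normal range. The mean was 379.5 ± 50.4 in dystrophic and 470.1 ± 99.4 in normal pools (SD, n = 4). The log2 difference was -0.28 (SE 0.17, 95% interval -0.66 to 0.09, limma adjusted p = 0.647), and the two-sided exact permutation p over the 8 pools was 0.171. The interval runs from 0.634 to 1.06 times the normal level, so a fall by 2-fold lies outside it and no change lies inside. Cpa3 was lower in dystrophic than in normal pools at each spike-in level, by -0.21 for replicate 1, -0.25 for replicate 3 and -0.34 for replicates 2 and 4. Normal replicate 4, the pool with the highest Cpa3 signal, also had the highest summed signal of skeletal muscle markers, 202175 against 131277 to 160900.0 in the other normal pools and 128427 to 146842 in dystrophic pools. Without that pool the Cpa3 difference was -0.18. The part of muscle content in the Cpa3 values was not tested.

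Cma1 encodes a mast cell chymase of the alpha type, which in rodents cleaves like an elastase. The probe set 1449456_a_at had 415, 341, 351 and 351 in dystrophic pools 1 to 4, against 451, 302, 381 and 356 in normal pools 1 to 4. All 4 dystrophic pools lay within the normal range, and replicate 1 was the highest pool of each group. The mean was 365 ± 34.0 in dystrophic and 372 ± 62.0 in normal pools (SD, n = 4). The log2 difference of -0.02 (SE 0.15, 95% interval -0.35 to 0.31, limma adjusted p = 0.983) spans 0.783 to 1.24 times the normal level. This is the narrowest interval of the 4 tested members, and its sign turned with small changes, at 0.073 without normal replicate 1 and 0.057 on the values as deposited. Within the spike-in levels it was -0.12 for replicate 1, -0.11 for replicate 3 and 0.07 for replicates 2 and 4.

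Mcpt4 encodes the mouse chymase whose cleavage of proteins most resembles that of human chymase, and which in mice takes part in the turnover of fibronectin and the activation of matrix proteases. The signals of 1425967_a_at were 233, 268, 185 and 232 in dystrophic pools 1 to 4, against 184, 101, 297 and 122 in normal pools 1 to 4. The dystrophic pools lay close together and inside the normal range, whose ends were normal replicates 2 and 3. The mean was 229.6 ± 34.0 in dystrophic and 176 ± 88.4 in normal pools (SD, n = 4), and they differed by 0.45 on the log2 scale (SE 0.28, 95% interval -0.16 to 1.06, limma adjusted p = 0.656). This interval, 0.896 to 2.09 times the normal level, holds both no change and a rise by 2-fold. The direction was not the same at the 3 spike-in levels, with 1.07 for replicates 2 and 4, -0.64 for replicate 3 and 0.32 for replicate 1. Leaving out normal replicate 3 gave 0.72, and leaving out normal replicate 2 gave 0.25, neither of them called.

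Tpsb2 encodes a mast cell tryptase, a trypsin-like protease held in granules by heparin. Its brighter probe set, 1422180_a_at, had 248, 192, 211 and 259.6 in dystrophic pools 1 to 4, against 263, 178, 261 and 105 in normal pools 1 to 4. Normal replicate 4 stood lowest, and every dystrophic pool fell inside the normal range. The mean was 228 ± 31.7 in dystrophic and 202 ± 75.7 in normal pools (SD, n = 4), which is 0.23 on the log2 scale (SE 0.26, 95% interval -0.33 to 0.79, limma adjusted p = 0.839), or 0.795 to 1.73 times the normal level. Without normal replicate 4 it was -0.026, so the positive sign rests on that pool. At the spike-in levels the difference was -0.08 for replicate 1, -0.29 for replicate 3 and 0.64 for replicates 2 and 4. The dimmer probe set, 1451802_at, had 33.4, 48.4, 38.3 and 33.2 in dystrophic pools, against 58.9, 57.5, 24.7 and 11.0 in normal pools. It was above the highest TrpnX control in 6 of 8 pools, and its normal values spread on both sides of the dystrophic ones. Tpsab1, the neighbouring tryptase gene, which the RefSeq table lists as a transcribed pseudogene, was at 0.25 (SE 0.23, adjusted p = 0.788). Tpsab1 and Tpsb2 are close copies, and whether their probe sets read each other's transcript was not tested.

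**Figure D2:**
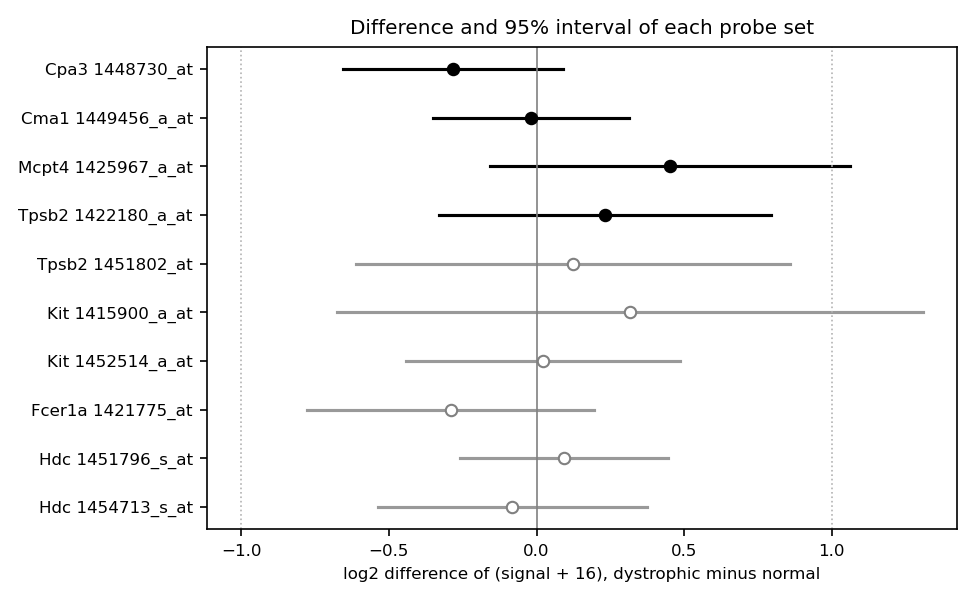
Log2 difference of signal + 16, dystrophic minus normal, with its 95% interval from limma, for the 10 probe sets. Filled points passed the filter and were tested, open points were too dim, and dotted lines mark 2-fold. Every interval crosses 0.

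As a group the 4 tested proteases had a mean log2 value of 8.12 to 8.41 in the dystrophic pools, inside the 7.84 to 8.44 of the normal pools. In 4 of 4 the spread between pools was wider in normal muscle. Among the 6 member probe sets below the filter this held for only 1. For Fcer1a the SD on the log2 scale was 0.28 in dystrophic and 0.09 in normal pools. A wider spread in normal pools was also seen in each tested skeletal muscle probe set. For Acta1 the SD was 0.14 in dystrophic and 0.32 in normal pools, and for Ckm 0.15 and 0.28. The tested Kitl probe sets went the other way. The wider spread was thus not particular to the proteases, and its share over the whole array was not counted. For Mcpt4 the SD on the log2 scale was 0.21 in dystrophic and 0.63 in normal pools, and for Tpsb2 it was 0.19 in dystrophic and 0.57 in normal pools. The difference in spread was not tested. Normal replicates 2 and 4, which share a spike-in level, had the lowest protease means, at 7.84 and 7.95. Dystrophic replicates 2 and 4, at the same level, had 8.22 and 8.29, above dystrophic replicate 3 at 8.12. In normal replicate 4 the 4 genes went separate ways, with Cpa3 at 0.46 and Tpsb2 at -0.89 relative to its own mean over the 8 pools, as the plot by pool shows.

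**Figure D3:**
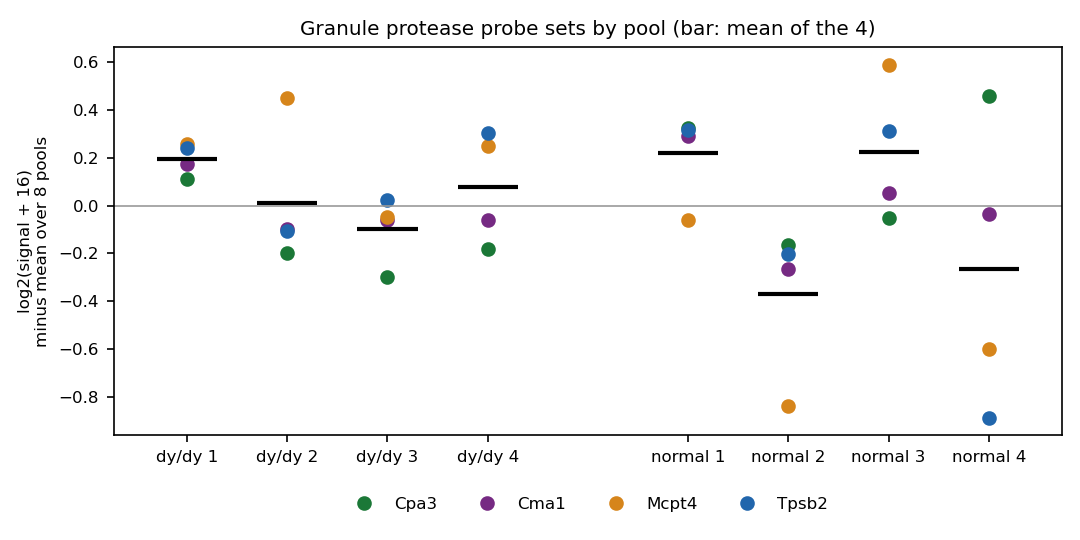
Deviation of log2(signal + 16) from its mean over the 8 pools for the 4 tested protease probe sets, with a bar at the mean deviation in each pool. The bars of the dy/dy pools run from -0.10 to 0.20 and those of the normal pools from -0.37 to 0.23.

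The pools did not order the proteases alike. Over the 8 pools Cma1 had a Pearson correlation of 0.57 with Cpa3, rank 1695 among the 13574 other tested probe sets, while Mcpt4 was at -0.29 and Tpsb2 at -0.38. The genes whose pattern over the 8 pools was most like that of Cpa3 were Rbfox1, a splicing factor of muscle and neurons, at 0.996, Borcs7, of a lysosome-positioning complex, at 0.978, Atp5k, a subunit of ATP synthase, at 0.975, Nme2, a nucleoside diphosphate kinase, at 0.974, and Ndufb11, a subunit of respiratory complex I, at 0.972. None of these 5 was called between the groups (limma adjusted p from 0.597 to 0.763). The points share arrays, scaling and spike-in level, and with 8 of them many probe sets reach a high value.

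Kit, the receptor for stem cell factor, had a probe set, 1452514_a_at, just below the filter. Its signals were 133, 111, 114 and 83.5 in dystrophic pools 1 to 4, against 121, 103, 115 and 91.9 in normal pools 1 to 4. The groups lay on top of each other, and replicate 1 was again the highest of each group. The mean was 110.5 ± 20.4 in dystrophic and 108 ± 12.96 in normal pools (SD, n = 4), and the fit with no filter gave a log2 difference of 0.02 with a 95% interval of -0.44 to 0.49. The other Kit probe set, 1415900_a_at, ranged from 8.29 to 67.9 in dystrophic and from 8.09 to 66.2 in normal pools and was above the TrpnX controls in 4 of 8, which leaves its order without weight. Kit is also made by melanocytes, and of 8 probe sets of melanocyte markers 3 were tested and 0 called, with a summed signal of 557 to 865 in dystrophic and 581 to 936 in normal pools.

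Fcer1a, the chain of the high-affinity receptor that binds IgE, had signals of 76.6, 54.6, 48.0 and 42.8 in dystrophic pools 1 to 4, against 77.6, 65.4, 67.3 and 70.9 in normal pools 1 to 4. Dystrophic pools 2, 3 and 4 lay below every normal pool and dystrophic pool 1 was level with the highest normal ones. The mean was 55.5 ± 14.9 in dystrophic and 70.3 ± 5.38 in normal pools (SD, n = 4), a log2 difference of -0.29 with a 95% interval of -0.78 to 0.19 in the fit with no filter. The two-sided exact permutation p was 0.114. All 8 pools were above the TrpnX controls, though the probe set was below the filter.

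Hdc, histidine decarboxylase, makes histamine from histidine. Its probe set 1451796_s_at ranged from 8.48 to 17.9 in dystrophic and from 9.75 to 12.0 in normal pools, and 1454713_s_at from 7.31 to 22.0 in dystrophic and from 10.2 to 22.0 in normal pools. Every value lies within the TrpnX range of 0.78 to 32.2, so no level of Hdc was measurable in either group.

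The other chains of the IgE receptor were measured too, and were named after their values were seen. Ms4a2, the beta chain, which is made by mast cells and basophils, was below the filter, with 62.3 to 99.1 in dystrophic and 59.6 to 132 in normal pools. Fcer1g, the gamma chain, which macrophages and other myeloid cells also use with their IgG receptors, had 187, 291, 217 and 332 in dystrophic pools 1 to 4, against 82.6, 111, 149 and 32.9 in normal pools 1 to 4. The groups did not overlap, against a share of 6.4% among all probe sets tested. The log2 difference was 1.41 (SE 0.34), but the limma adjusted p of 0.125 missed the threshold. Within each pool, Fcer1g minus Fcer1a on the log2 scale averaged 1.92 ± 0.60 in dystrophic and 0.22 ± 0.79 in normal pools (SD, n = 4), a difference of 1.70. This pair and the next were chosen after their values were seen and are described with no test. The macrophage gene Mpeg1, a pore-forming protein, minus Cpa3 averaged 0.47 ± 0.32 in dystrophic and -1.85 ± 0.65 in normal pools (SD, n = 4), a difference of 2.31. The summed signal of 6 macrophage markers was 9214 to 10203 in dystrophic and 5584 to 7634 in normal pools. Of their 7 tested probe sets 2, for Mpeg1 and Cd68, were called, both higher, against 0.494% called over the array. Fcer1g and Mpeg1 passed the filter only through the dystrophic pools. In normal pools their mean log2 values were 6.65 and 7.06, under the cut of 7.11.

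**Figure D4:**
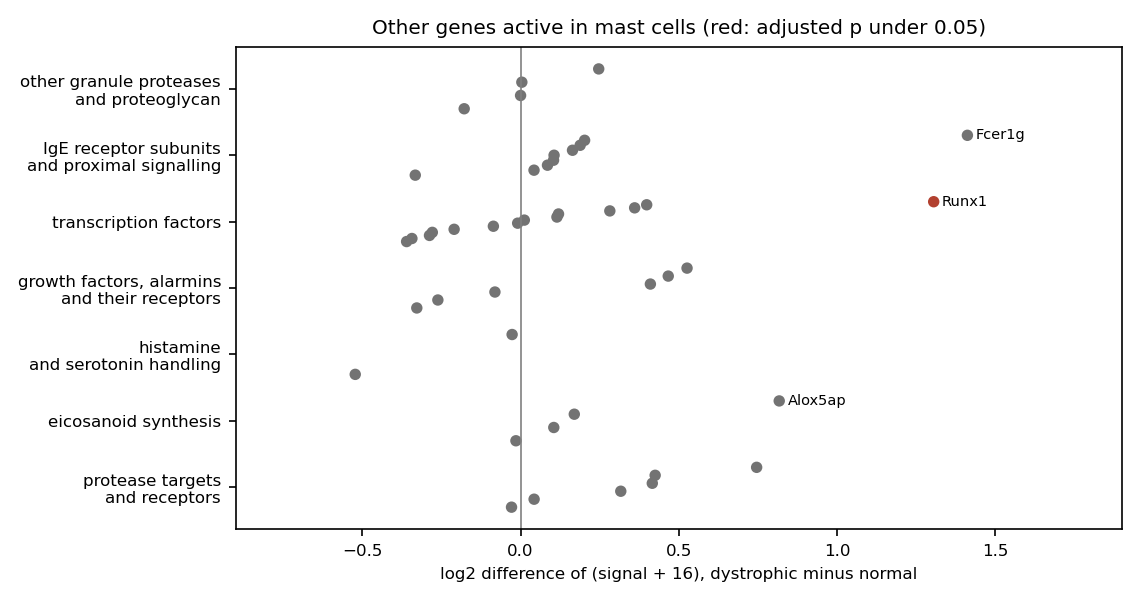
Log2 difference of signal + 16, dystrophic minus normal, of each of 45 tested probe sets in 7 lists of other genes active in mast cells, with red for an adjusted p under 0.05. Runx1, at 1.31, is the red point, and Fcer1g, at 1.41, and Alox5ap, at 0.82, are named beside it.

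Beyond the members, 74 other genes active in mast cells were set down in 7 lists from general knowledge, and 62 of them had a named probe set. Most are made by many cell types, so they are read as the pathway around the members and not as markers. Of 45 tested probe sets 1 was called higher in dystrophic muscle, 0 lower and 44 did not pass. Their median log2 difference was 0.10, against -0.01 over all probe sets tested. An unadjusted p under 0.05 was reached by 9, 6 of them higher and 3 lower. Over the array it was 1320 of 13575 (9.72%), 760 higher and 560 lower. Of the higher ones in the lists, Fcer1g, Il4ra and Runx1 1422865_at passed the filter only through the dystrophic pools. Their mean log2 values in normal pools were 6.65, 6.89 and 6.52, under the cut of 7.11. The lists were also chosen with earlier results of these data known, so no conclusion is drawn from these counts.

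The call was Runx1, a transcription factor of blood cell development that is also induced in denervated muscle fibres. Its probe set 1422865_at had 197, 181, 248 and 223 in dystrophic pools 1 to 4, against 74.1, 104, 62.2 and 67.9 in normal pools 1 to 4. All dystrophic pools lay above all normal pools, while 6.4% of all probe sets tested had groups without overlap in either direction. The log2 difference of this Runx1 probe set was 1.31 (SE 0.20, limma, adjusted p = 0.0159). Its mean log2 value was 7.83 in dystrophic and 6.52 in normal pools, against a filter cut of 7.11. It thus passed the filter only through the group where it is high, which limits what the call can show. The 2 other tested Runx1 probe sets, at 0.28 and -0.28, did not pass (adjusted p = 0.689 and 0.811). Without any 1 of the dystrophic arrays the probe set fell below the filter and was not tested, and without any 1 of the normal arrays it was called, with adjusted p from 0.0185 to 0.0490. With normal replicate 4 and dystrophic replicate 3 both left out it did not pass (adjusted p = 0.145). A dimmer Runx1 probe set, 1422864_at, was below the filter, with 104, 72.0, 221 and 193 in dystrophic pools 1 to 4, against 7.90, 35.9, 12.4 and 5.36 in normal pools 1 to 4, of which 3 lie within the TrpnX range.

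Among the factors that act on mast cell promoters, Gata2 had a log2 difference of -0.21 (SE 0.14, adjusted p = 0.689), with 343 to 453 in dystrophic and 415 to 530.4 in normal pools. Mitf was at -0.36 (SE 0.15, adjusted p = 0.481), with 426 to 570.3 in dystrophic and 562 to 817 in normal pools. Stat5b, which signals downstream of Kit and the cytokine receptors, had no overlap between groups on its brightest probe set, with 676 to 742 in dystrophic and 817 to 995 in normal pools, at -0.34 (SE 0.12, adjusted p = 0.333). A second Stat5b probe set was at -0.29 (adjusted p = 0.807). These 3 factors gave no call, and groups without overlap were found in 6.4% of all probe sets tested. The list of transcription factors had a median of 0.00, with 7 of 14 probe sets above 0.

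Kitl, the stem cell factor that binds Kit, was the brightest of the growth factor list. Its 3 tested probe sets were at -0.26, -0.08 and -0.33, and none passed (limma adjusted p = 0.614, 0.930 and 0.469). On the brightest, signals were 812, 1107, 807 and 715 in dystrophic pools 1 to 4, against 1086, 928, 1077 and 1000.2 in normal pools 1 to 4. Dystrophic pools 1, 3 and 4 lay below every normal pool and dystrophic pool 2 above them all. Tgfb1, a growth factor that attracts mast cells, was at 0.47 (SE 0.22, adjusted p = 0.522).

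The granule and mediator genes around the members also gave no call. Srgn, the proteoglycan core that packs granule proteases, had 1127 ± 40.9 in dystrophic and 1128 ± 69.9 in normal pools (SD, n = 4), a log2 difference of 0.00 (SE 0.11). Lamp1, a membrane protein of lysosomes and granules, was at -0.18 (SE 0.15, adjusted p = 0.764). In eicosanoid synthesis, Alox5ap, the partner of 5-lipoxygenase in leukotriene synthesis, had 790 to 956 in dystrophic and 345 to 553 in normal pools. Those groups did not overlap, against a share of 6.4% among all probe sets tested. The log2 difference of 0.82 (SE 0.16) missed the threshold with a limma adjusted p of 0.0552. It passed with an offset of 64 (0.0492), under quantile normalization (0.0456) and with the replicate block (0.0493). Ptges, a prostaglandin E synthase, was at -0.01. In amine handling, Maoa, which breaks down monoamines, was at -0.03 and Hrh3, a histamine receptor of neurons, at -0.52 (SE 0.36). Among IgE receptor kinases and phosphatases, the kinase Fyn was at 0.20 and 0.11 on its 2 tested probe sets and the phosphatase Ptpn6 at 0.04. Of proteins that chymases act on or share a substrate with, Fn1, fibronectin, was at 0.43 (SE 0.23, adjusted p = 0.597) and 0.04 (adjusted p = 0.976) on its 2 tested probe sets, and Ace, the enzyme that like chymase forms angiotensin II, at 0.42 (SE 0.16, adjusted p = 0.403) and 0.32 (adjusted p = 0.879) on its 2.

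Markers of basophils and eosinophils were dim. Mcpt8, the basophil protease, had 11.6 to 22.7 in dystrophic and 2.92 to 34.1 in normal pools. Of 5 probe sets of eosinophil markers 0 passed the filter, with a summed signal of 97.3 to 174 in dystrophic and 112 to 230 in normal pools. The mucosal mast cell protease Mcpt1 had 7.2 to 31.8 in dystrophic and 6.92 to 36.4 in normal pools, at or near the TrpnX range in both groups. Mesothelial markers, which belong to the lining of the diaphragm, were all above the filter, with 0 of 5 probe sets called and a summed signal of 4774 to 6916 in dystrophic and 4999.9 to 7485 in normal pools.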

How the data were processed

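RNA of 4 dystrophic and 4 normal diaphragm pools was measured on Affymetrix arrays. The authors deposited 1 table of signal intensity on a linear scale, made with MAS5 per the submitters' processing notes. Its version, the array dates and detection calls are not given there. The deposited trimmed mean (2% cut from each end) was 500.2 on 7 arrays and 400.2 on normal replicate 4. All arrays were rescaled to 487.7, since the trimmed means differed by over 10%. Tests used log2(signal + 16), and this offset makes changes of dim probe sets smaller. Leaving out 64 controls and the lowest 40% by mean log2 value left 13575 probe sets. limma 3.58.1 in R 4.3.3 (lmFit, eBayes with an intensity trend, no covariates) gave differences, 95% intervals and Benjamini-Hochberg adjusted p over all of them, called under 0.05. For dim members, differences and intervals come from a fit with no filter, without a call. The code was tested on simulated data. The number of arrays limits the precision.

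Platform annotation gave 20380 probe sets 1 symbol, 691 several and 1555 none, and a probe set with several symbols names no gene. Older symbols were replaced by matching Entrez identifiers to a RefSeq table of GRCm38.p6. Affymetrix writes _a_at for probe sets that read several transcripts of a gene and _s_at for ones that can read transcripts of several genes. Pools count as biological replicates, since each holds different mice per the labels. The members and gene lists were chosen with earlier results of these data known. Named were every member, Lama2, the called genes (at most 4) and the 2 brightest genes of each mast cell list, and the 5 genes most like the brightest member over the pools. Other genes were named after their values were seen. The alternatives were offsets of 1 and 64, values as deposited, quantile normalization, no filter, the lowest 60% left out, no intensity trend, a replicate block, the spike-in level as a block, each array left out, and normal replicate 4 and dystrophic replicate 3 left out together. Spike-in levels were parted where the geometric mean of 24 poly-A control probe sets stepped by over 0.5 log2. Exact tests used scipy 1.17.1 and figures matplotlib 3.10.9.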

Additional observations from a re-analysis of the deposited data

Results flagged for a closer look

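In 8 of 110 groups of 4 pools, over the member probe sets and the tested probe sets of the mast cell lists, the highest or lowest pool stood apart by a gap of over 0.829 of the group's range. Chance alone gives about 1 such group in 20. One concerned a member: Cma1 had a signal of 415 in dystrophic replicate 1, against 341 to 351 in the other dystrophic pools. Replicate 1 was also the highest normal pool for Cma1.

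The other 7 were in the lists. Alox5ap had 956 in dystrophic replicate 2, against 790 to 814 in the other dystrophic pools. In dystrophic replicate 3, Lamp1 had 6303, against 7456 to 7603 in the other dystrophic pools, and Fn1 had 3749, against 2839 to 2885. Tal1 had 236 in dystrophic replicate 1, against 135 to 144 in the other dystrophic pools. In normal replicate 4, the signal phosphatase gene Inpp5d had 115, against 190.1 to 199 in the other normal pools, and Zfpm1 had 297, against 236 to 241. Runx1, on a probe set that was not called, had 142 in normal replicate 3, against 186 to 192 in the other normal pools.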

How the results depend on the processing

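The count of member probe sets called was 0 under each of the 18 alternatives, and the lowest adjusted p of any member was 0.293, for Mcpt4 without normal replicate 3. Mcpt4 and Tpsb2 were not tested with the lowest 60% left out. Cpa3 stayed negative in all 18, between -0.38 and -0.13, and Mcpt4 stayed positive in the 17 that tested it, between 0.25 and 0.72. Cma1 turned positive on the values as deposited (0.057), and over the leave-one-out fits it ran from -0.112 to 0.0732. Tpsb2 ran from -0.0261 to 0.375 over the leave-one-out fits, with the negative value without normal replicate 4. Among the dim members, which were not tested, the dimmer Tpsb2 probe set ran from -0.17 to 0.32, the brighter Kit probe set from -0.06 to 0.13 and Hdc 1454713_s_at from -0.22 to 0.02, so none of these 3 kept its sign, while Fcer1a stayed negative, between -0.42 and -0.18. The cause of these changes was not tested.

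Over the array, 67 calls became 105 with the replicate block, 114 with the spike-in level as a block, 31 without normal replicate 4 and dystrophic replicate 3 together, and 25 to 61 over the leave-one-out fits. The replicate block changed no call of a member. Same-numbered pools deviated together with correlations of 0.37, -0.03, 0.05 and 0.10, and 2 of 8 pools correlated best with their own number, so the numbers were not taken as pairs. In the lists of other mast cell genes 1 call became 2 with an offset of 64, quantile normalization, no filter or the replicate block. It became 0 with the lowest 60% left out, where the called Runx1 probe set was no longer tested, and 0 without normal replicate 4 and dystrophic replicate 3 together. Over the leave-one-out fits it was 0 to 1, with 0 where a dystrophic array was left out and the called Runx1 probe set fell below the filter. Lama2 was called under each of the 18 alternatives, between -1.70 and -1.45. Signal near the negative controls limits Hdc and 1 probe set of Kit.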

Other observations

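Il3ra, the receptor chain for the mast cell and basophil growth factor interleukin 3, was too dim for the test but did not overlap between groups. It had 146, 70.1, 81.4 and 79.0 in dystrophic pools 1 to 4, against 14.5, 18.0, 65.0 and 9.02 in normal pools 1 to 4. Macrophages and endothelium also make this receptor, and the part of those cells was not tested. Normal pools 1, 2 and 4 did not exceed the highest TrpnX control signal, so no fold is given, and the limma fit with no filter gave no call. Il3ra was not alone in this among dim probe sets of the lists. The dimmer Runx1 probe set also did not overlap and was higher. Hnmt, of the amine handling list, did not overlap and was lower, with 93.9 to 115 in dystrophic and 133 to 145 in normal pools. The lists held 88 probe sets, of which 45 were tested. Among all probe sets tested over the array, 6.4% did not overlap, and the share among dim probe sets was not counted.

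Mcpt2, a chymase of mucosal mast cells, fell into separate levels that did not follow the groups. It had 184, 28.3, 190 and 27.1 in dystrophic pools 1 to 4, against 105, 131, 26.7 and 29.4 in normal pools 1 to 4. Pools of both groups lay at 105 and above, and pools of both lay below 30.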
